A study of Homo sapiens with 2 samples.

Results

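The family of miR-103 and miR-107 comprises 3 microRNA hairpins, hsa-mir-103a-1, hsa-mir-103a-2 and hsa-mir-107, and its members were taken as every row of the deposited count table that lists 1 of these precursors. The rule found 4 of 2363 rows, which carry 3 of 2042 mature names: miR-103a-3p (listed once for each miR-103a hairpin), miR-103a-2-5p and miR-107. The study profiled hCMEC/D3, an immortalised line of human brain microvascular endothelial cells that stands in for the blood-brain barrier in culture. It has 1 group, untreated as far as the labels say, with 2 small RNA libraries labelled replicate 2 and replicate 8. The labels do not say whether these came from separate cultures, and the material is a single cell line, although the extraction text speaks of tissue.

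A microRNA is cut from a hairpin in a longer transcript by Drosha and Dicer, and 1 strand of the resulting duplex is loaded into an Argonaute protein, where its bases 2 to 8 (the seed) pair with target mRNAs. The hairpins of miR-103 and miR-107 lie in introns of the pantothenate kinase genes, which encode the enzymes for the first step of coenzyme A synthesis. The family is known for acting on insulin signalling through caveolin-1, on Dicer itself and, in hypoxic endothelial cells, on Argonaute 1. Its seed is offset by 1 base from that of the miR-15/16 family, whose best known targets are cell-cycle and survival genes.

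The mature sequences are shown because the whole family rests on very small differences between them. They are from RefSeq, 5′ to 3′, with the seed in capitals, and all 3 of the mature names matched by name.
miR-103a-3p: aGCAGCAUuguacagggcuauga
miR-107: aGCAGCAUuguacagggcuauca
miR-103a-2-5p: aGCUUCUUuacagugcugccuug
Each is 23 bases long. miR-103a-3p and miR-107 have the same seed and differ by the single substitution G22C, counted from 1 at the 5′ end with the base of miR-103a-3p first, so only a read that covers base 22 separates them. No further name in the RefSeq table has this seed. The 3p sequence of both miR-103a hairpins is identical, so its reads cannot be assigned to 1 of them.

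The hairpins differ more, in the loop and after the mature strand. They are printed from RefSeq (build GRCh38.p14), 5′ to 3′, with the 3p strand in capitals.
MIR103A1: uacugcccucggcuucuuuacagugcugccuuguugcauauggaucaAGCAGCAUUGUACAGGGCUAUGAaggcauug
MIR103A2: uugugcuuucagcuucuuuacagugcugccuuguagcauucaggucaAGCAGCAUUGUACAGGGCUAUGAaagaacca
MIR107: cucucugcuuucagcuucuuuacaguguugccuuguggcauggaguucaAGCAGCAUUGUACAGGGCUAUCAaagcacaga
Over the 22 bases before the loop the miR-103a hairpins were identical, and MIR107 differed from either at 1 base. Over the 14 bases of the loop, MIR103A1 and MIR103A2 differed at 5, MIR103A1 and MIR107 at 5, and MIR103A2 and MIR107 at 4. In the 8 bases after the 3p strand the miR-103a hairpins differed at 5, the nearest being G2A (counted from the first base after the strand, MIR103A1 first). The predicted minimum free energies were close, at -31.0 kcal/mol for MIR103A1, -28.1 for MIR103A2 and -29.5 for MIR107, with 20, 20 and 19 of the 23 mature bases paired.

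In GRCh37, the build that the submitters' notes name as hg19, MIR103A1 lies on chromosome 5 at 167987901 to 167987978 (minus strand) in PANK3. For MIR103A2 the place is the plus strand of chromosome 20, 3898141 to 3898218, in PANK2, and for MIR107 the minus strand of chromosome 10, 91352504 to 91352584, in PANK1. All 3 are on the strand of their host and intronic: none of the 2 PANK3, 8 PANK2 and 3 PANK1 transcripts that span them has an exon there. In the canonical transcript of each host, which has 7 exons, the hairpin sits in intron 5. It starts 419 bases after exon 5 in PANK3, 443 in PANK2 and 369 in PANK1. Exons 2 to 6 have the same lengths in all 3 hosts, 353, 254, 177, 124 and 126 bases, whereas intron 5 itself measures 2235 bases in PANK3, 1620 in PANK2 and 4419 in PANK1.

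**Figure D1:**
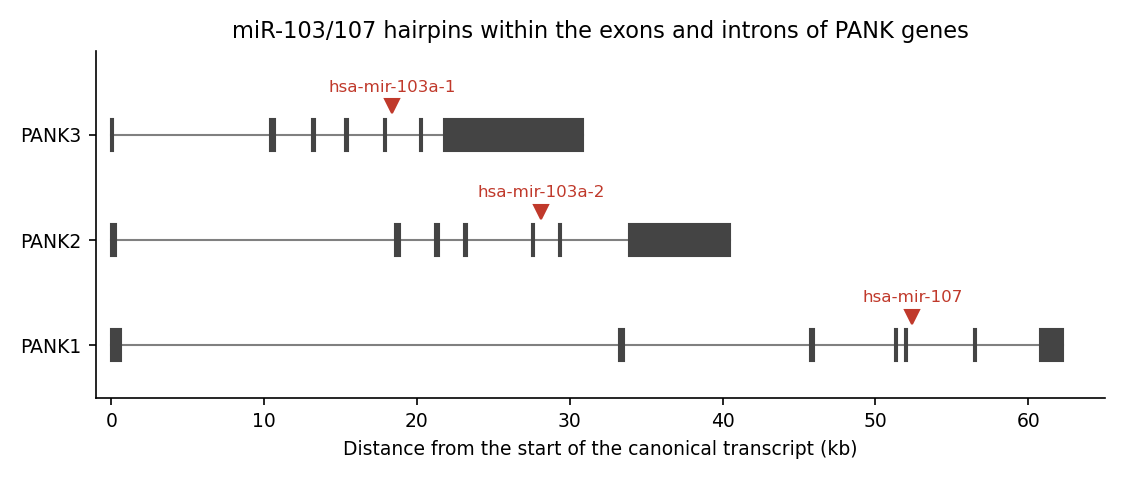
Exons (dark boxes) and introns (lines) of the canonical PANK3, PANK2 and PANK1 transcripts, drawn to scale as distance in kb from the transcript start, with the hairpin of each marked by a triangle. Each hairpin lies in intron 5, within 443 bases of the end of exon 5, in hosts that span 30.9, 40.5 and 62.3 kb.

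The libraries were of nearly equal depth, with 2721287 counts in replicate 2 and 2727675 in replicate 8 once each mature name was reduced to its highest row. CPM (counts scaled to a library sum of 1000000) are on these totals and are not divided by length, since each read stands for 1 microRNA. The endothelial markers miR-126-3p and miR-126-5p summed to 112920 ± 3981 CPM (SD, n = 2). Nearly all of this was miR-126-3p, while miR-126-5p was at 709 and 678 CPM in replicates 2 and 8. Markers of neurons summed to 44.1 and 34.1 CPM in replicates 2 and 8, and those of blood cells to 15.8 and 6.97 CPM, with 3 of their 4 at 0. Those of epithelia summed to 53.7 and 31.2 CPM, mostly miR-200c-3p. Of these, miR-205-5p (15 and 0 counts) and miR-429 (13 and 0) were seen only in replicate 2, and miR-141-3p in neither. The mural pair miR-143-3p and miR-145-5p stood at 835 and 393 CPM and liver miR-122-5p at 235 and 252 CPM.

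miR-103a-3p was among the abundant microRNAs of these cells and carried nearly all reads of its family. The row of hsa-mir-103a-2 held 34783 counts in replicate 2 and 33662 in replicate 8, and that of hsa-mir-103a-1 held 34720 and 33585. The level in replicate 2 was 12782 CPM (95% Wilson interval 12649 to 12916). That of replicate 8 was 12341 CPM (12211 to 12473), which gives 12561 ± 312 CPM (SD, n = 2). It ranked 20th of 2042 names in replicate 2 and 22nd in replicate 8. The labels mention no molecular identifiers, so all intervals here cover counting error only.

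The rows of hsa-mir-103a-1 and hsa-mir-103a-2 are close to 1 measurement listed for both hairpins. The hsa-mir-103a-2 row was higher by 63 counts in replicate 2 and by 77 in replicate 8, which is 0.181% and 0.229% of it. These are net gaps between the rows, and they do not show how many reads were counted for 1 hairpin only. How the gaps arose was not tested. Of 19 names with exactly 2 rows and at least 1000 summed counts, 13 had rows that differed by under 1%, and 9 had a larger gap than miR-103a-3p. The table therefore does not show how much of miR-103a-3p came from the PANK3 intron and how much from the PANK2 intron.

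miR-107, from the PANK1 intron, was present at a much lower level than miR-103a-3p. Replicate 2 held 2554 of its reads and replicate 8 held 2275. These are 939 CPM (95% Wilson interval 903 to 976) and 834 CPM (800 to 869), with a mean of 886 ± 73.9 CPM (SD, n = 2), and its rank was 88 and 90. miR-103a-3p exceeded it 13.6-fold in replicate 2 and 14.8-fold in replicate 8, a gap far beyond the spread between the libraries. Reads that stop before base 22 match both names, and the counting rule is not given in the sources used here. The count of either name may therefore include reads of the other. How many was not tested.

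**Figure D2:**
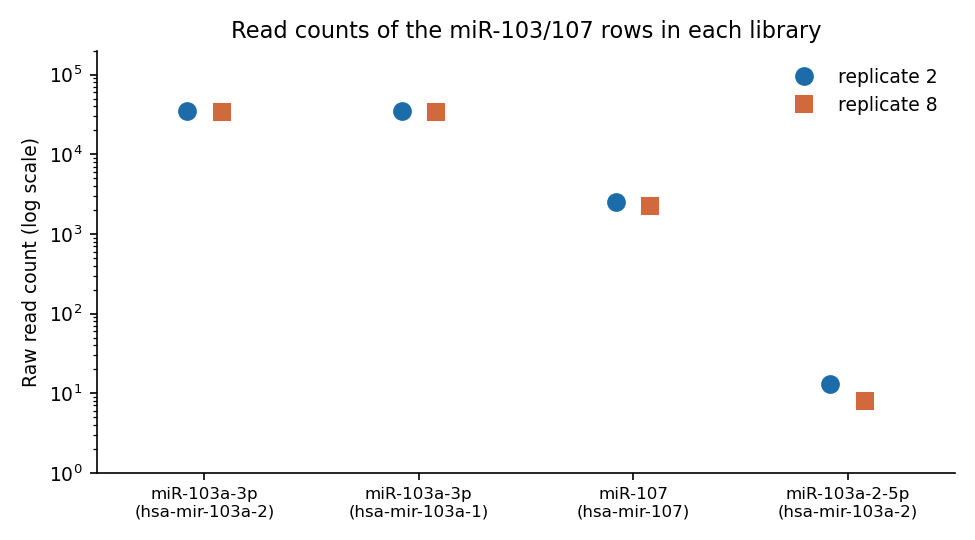
Raw read counts (log scale) of the 4 rows of the family in replicate 2 (circles) and replicate 8 (squares). The miR-103a-3p rows coincide, between 33585 and 34783 counts, while miR-107 has 2554 and 2275 and miR-103a-2-5p 13 and 8.

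The passenger strand of hsa-mir-103a-2 was close to the limit of detection. Of miR-103a-2-5p, 13 reads were counted in replicate 2 and 8 in replicate 8, that is 4.78 CPM (95% Wilson interval 2.79 to 8.17) and 2.93 CPM (1.49 to 5.79), where a count of 0 would allow up to 1.10 CPM. In replicate 2 it made up 0.0374% of the hairpin's reads (95% Wilson interval 0.0218 to 0.0639). In replicate 8 it made up 0.0238% (0.0120 to 0.0469). The libraries did not differ beyond counting error, with an interval of the difference from -0.0426 to 0.0142 percentage points. If only 50% of the shared 3p reads belonged to this hairpin, the shares would be 0.0747% and 0.0475%. A strong preference for 1 arm was common: over 116 hairpins with 1 row for the 5p arm, 1 for the 3p arm and at least 1000 summed counts, the median share of the minor arm was 1.04%, and 56 were under 1%. Below hsa-mir-103a-2 were 16 hairpins, 11 of them with the minor arm listed at 0. The table has no 5p row for hsa-mir-103a-1 or hsa-mir-107, whose passenger strands were not analysed here. In RefSeq the 5p strand of hsa-mir-103a-1 has the same last 22 bases as miR-103a-2-5p and differs only at base 1. Some of the reads counted as miR-103a-2-5p may thus come from hsa-mir-103a-1, which was not tested.

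**Figure D3:**
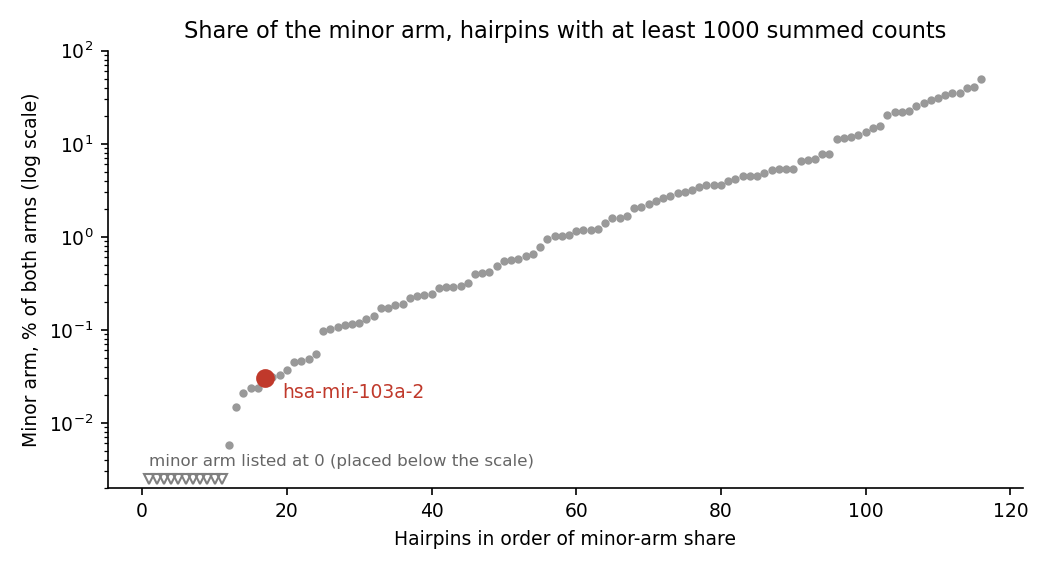
Share of the minor arm in the reads of both arms (%, log scale) for 116 hairpins with 1 row per arm and at least 1000 summed counts, in rising order. Open triangles mark 11 hairpins whose minor arm is listed at 0. The filled circle for hsa-mir-103a-2 has 16 hairpins to its left.

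The mature microRNA annotated on the opposite strand of the miR-103a loci had no counts. miR-103b, annotated antisense to both miR-103a hairpins, is the exact reverse complement of miR-103a-3p.
miR-103b: uCAUAGCCcuguacaaugcugcu
Both of its rows, for hsa-mir-103b-1 and hsa-mir-103b-2, were at 0 in both libraries, beside at least 33585 counts on the miR-103a strand. This allows up to 1.10 CPM in either library.

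The family as a whole held 37350 counts in replicate 2 and 35945 in replicate 8. Its level was 13725 CPM (95% Wilson interval 13588 to 13864) and 13178 CPM (13043 to 13314), or 13452 ± 387 CPM (SD, n = 2), which is 1.37% and 1.32% of all counts. Within it, the replicate 2 share of miR-107 in the sum of miR-103a-3p and miR-107 was 6.84% (95% Wilson interval 6.59 to 7.10). The replicate 8 share was 6.33% (6.08 to 6.59). This share does not depend on how the libraries are scaled, but it does depend on how reads that match both names were counted. Replicate 8 minus replicate 2 was -0.51 percentage points (95% Newcombe interval -0.87 to -0.15), so the mature names did not keep exactly the same proportion in both libraries, by counting error alone.

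Whether each member differed between the libraries was tested together with all other names, by a two-sided exact binomial test on the counts with Benjamini-Hochberg adjustment over the 695 names with at least 10 summed counts. It compares 2 libraries and not conditions. Scaled by library totals, miR-103a-3p was lower in replicate 8, at -0.051 on the log2 scale (95% interval -0.072 to -0.029; adjusted p = 2.8e-05 by the exact binomial test). So was miR-107, at -0.17 (-0.25 to -0.09; adjusted p = 0.00025 by the exact binomial test). For miR-103a-2-5p the value was -0.67 (-2.18 to 0.68; exact binomial adjusted p = 0.46). So 2 of the 3 members were called, where 34.2% of all tested names were, 23.5% as lower and 10.8% as higher in replicate 8. The test calls smaller ratios at higher counts, and this share is not matched for count.

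These calls depend on the scaling. TMM sizes raise every log2 ratio by 0.087 and DESeq2 size factors by 0.11. With TMM sizes miR-103a-3p was called higher in replicate 8, at 0.036 (exact binomial adjusted p = 0.0045), and miR-107 was at -0.083 and no longer called (exact binomial adjusted p = 0.12). There 32.2% of all names were called, 17.1% as lower and 15.1% as higher. With DESeq2 size factors miR-103a-3p was at 0.063 (exact binomial adjusted p = 9.7e-08) and miR-107 at -0.057 (exact binomial adjusted p = 0.34), where 31.9% were called, 15.4% as lower and 16.5% as higher. The direction of miR-103a-3p is thus set by the choice of scale.

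**Figure D4:**
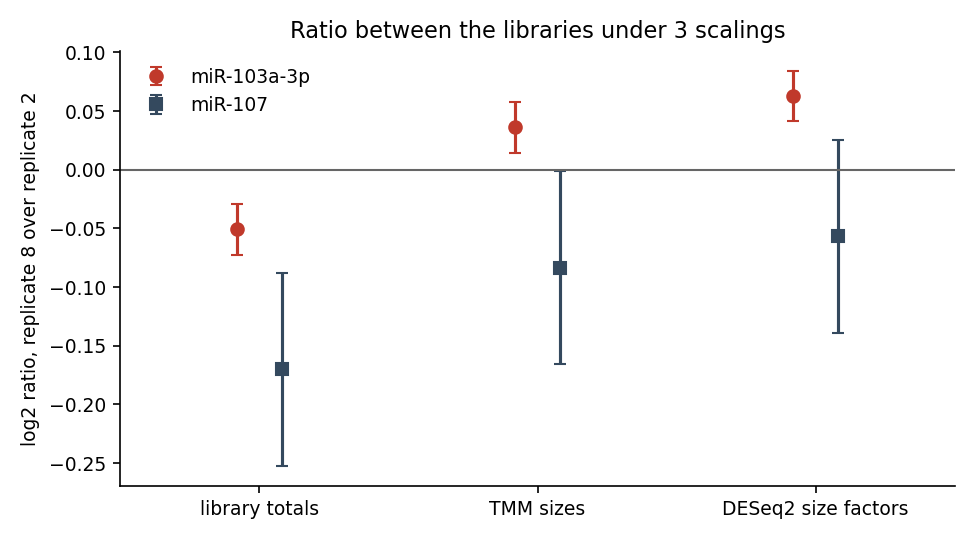
Log2 ratio of replicate 8 over replicate 2 for miR-103a-3p (circles) and miR-107 (squares) with libraries scaled by totals, TMM sizes or DESeq2 size factors. Bars are 95% intervals of counting error. miR-103a-3p moves from -0.051 to 0.036 and 0.063, and miR-107 is at -0.17, -0.083 and -0.057. With DESeq2 size factors the interval of miR-107, -0.139 to 0.025, includes 0.

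Set against the median of the abundant names, a difference that scaling leaves alone, miR-103a-3p moved little. Over the 174 names with at least 1000 summed counts the median log2 ratio was -0.07 and the median absolute log2 ratio 0.17. Both of these are by library totals and change with the scale. miR-103a-3p lay 0.021 above that median, and 11 of the 174 names were closer to it. The value of miR-107 minus that median was -0.099, with 49 names closer. Against the median of all 695 tested names, -0.11, the differences were 0.063 for miR-103a-3p and -0.057 for miR-107.

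**Figure D5:**
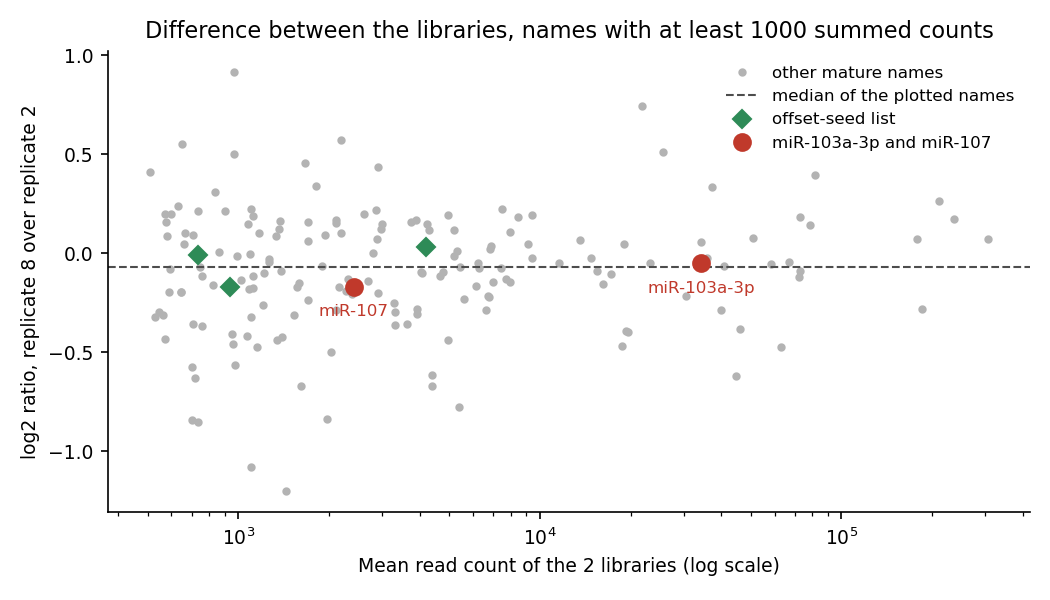
Log2 ratio of replicate 8 over replicate 2 against the mean read count (log scale) for 174 mature names with at least 1000 summed counts, scaled by library totals. The dashed line is their median, -0.07, and miR-103a-3p (0.021 above it) and miR-107 (-0.099 from it) are filled circles. Diamonds are the 3 plotted names of the miR-15/16 list.

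miR-103 is often used as a reference to normalise microRNA assays, so it was set beside 10 other microRNAs used in that way. Their log2 ratios by library totals ran from -1.16 for miR-451a to 0.33 for let-7a-5p, with a median of -0.10. The value of miR-451a rests on only 43 and 19 counts in replicates 2 and 8, and the next lowest ratio was -0.38. By totals 8 of 10 were called, 7 lower and 1 higher (4 and 2 by TMM, 3 and 2 by DESeq2 scaling). Of all tested names, 34.2%, 32.2% and 31.9% were called on these scales, again without matching for count. For miR-191-5p, a frequent companion of miR-103 in this use, the counts of 51938 and 40002 in replicates 2 and 8 gave a log2 ratio of -0.38. Of the 10, miR-25-3p and miR-186-5p, named after their values were seen, lay closer to the median of the abundant names than miR-103a-3p, and 4 lay closer to the median of all 695 tested names. By size of the log2 ratio alone, on library totals, 2 of the 10 were smaller and 8 larger. Which names are smaller changes with the scale.

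The microRNAs with the related, offset seed were much less abundant than miR-103a-3p. Bases 1 to 7 of miR-103a-3p and miR-107 are the same as bases 2 to 8 of most of the miR-15/16 group, as the sequence of its most abundant member shows, with the seed in capitals.
miR-16-5p: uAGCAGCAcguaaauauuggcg
Of the 8 listed names of this group, 7 had at least 10 counts in both libraries, and miR-646 had none. The counts of miR-16-5p were 4144 and 4248 in replicates 2 and 8, at 1540 ± 24.4 CPM (SD, n = 2). The whole list summed to 2396 ± 68.6 CPM. All 8 were below miR-103a-3p, and miR-16-5p was the only one above miR-107.

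The balance between the family and this list did not differ between the libraries beyond counting error. miR-103a-3p and miR-107 together had 5.61 times the counts of the miR-15/16 list in replicate 2 and 5.61 times in replicate 8. Their share of the sum was 84.9% in either library, and the 95% Newcombe interval of the difference ran from -0.479 to 0.477 percentage points. miR-503-5p and miR-646 share only the first 6 bases of the offset seed. With the 6 names that have all 7 bases, a choice made after seeing the data, the family had 6.31 times the counts in replicate 2 and 6.34 times in replicate 8, with an interval of the difference in share from -0.412 to 0.512 percentage points. The single members of the list were less even. By library totals 4 of 7 tested were called lower in replicate 8 and none higher (3 and 1 by TMM, 2 and 1 by DESeq2 scaling), with a median log2 ratio of -0.36 against -0.11 over all tested names. Of all tested names 23.5% were called lower and 10.8% higher by totals, 17.1% and 15.1% by TMM, and 15.4% and 16.5% by DESeq2 scaling. The furthest were miR-424-5p, with 54 and 29 counts, and miR-497-5p, with 283 and 177 counts. miR-503-5p, with 739 and 736 counts, was not called, and neither was miR-16-5p, which was called higher with TMM sizes (adjusted p = 0.00079 by the exact binomial test).

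Among other microRNAs that sit in introns of protein-coding genes, the miR-26 family in the CTDSP phosphatase genes has a similar layout and showed a similar order of levels. miR-26a-5p, which also has a hairpin in each of 2 loci, was at 18637 ± 705 CPM (SD, n = 2), and miR-26b-5p at 463 ± 6.48 CPM. miR-378a-3p, from PPARGC1B, a coactivator gene of energy metabolism, was at 1048 ± 113 CPM, close to miR-107. Of the hairpins in introns of the sterol regulators SREBF2 and SREBF1, the listed 5p arms were hardly seen. miR-33a-5p had 4 and 1 counts, and miR-33b-5p had 0 in both. Their 3p arms were not on the list: miR-33b-3p stood at 12.5 and 15.8 CPM in replicates 2 and 8, and miR-33a-3p at 1.47 and 0.367 CPM. Of 11 microRNAs listed for roles in insulin signalling and lipid metabolism, 9 had at least 10 counts in both libraries and all 11 were below miR-103a-3p. The highest were miR-27a-3p at 6859 ± 1564 CPM and miR-27b-3p at 5426 ± 60.1 CPM. By library totals, 5 of the 9 tested were called, 3 lower and 2 higher in replicate 8 (3 and 3 by TMM, 2 and 4 by DESeq2 scaling), where the share over all tested names was 34.2% (32.2% and 31.9% on the other scales).

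By distance of log2 CPM over the 2 libraries, among 543 names with at least 10 counts in both, the names most like miR-103a-3p were miR-222-3p (distance 0.076) and miR-221-3p (0.10), both abundant in endothelial cells. They were followed by miR-1307-3p (0.26), let-7a-5p (0.31) and miR-423-5p (0.34). miR-222-3p had 33460 and 34891 counts, so it was below miR-103a-3p in replicate 2 and above it in replicate 8. miR-221-3p, with 36193 and 35704 counts, was above it in both. Nearest to miR-107 were miR-30e-5p (0.033), with 2555 and 2223 counts, miR-339-3p (0.094), miR-28-5p (0.13), miR-589-5p (0.22) and miR-574-3p (0.23). The order of miR-107 and miR-30e-5p changed between the libraries. With 2 libraries this likeness is mostly one of level.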

How the data were processed

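Small RNA was sequenced from 2 libraries of hCMEC/D3 after adaptor ligation, PCR with index primers and gel selection of the microRNA fraction, per the labels' protocols. The submitters' processing notes name CASAVA 1.9, FastQC, cutadapt, Bowtie 0.12.7 and the build hg19; the counting rule and miRBase release are not given in the sources used here. The deposited table gives raw read counts and RPM for each mature name and precursor, per the file headers. The authors' RPM equal the count divided by 3180045 in replicate 2 and 3205752 in replicate 8, which exceeds the column sums of 3167238 and 3195174. Ligation and size selection affect which microRNAs are captured, so levels of different names are less comparable than 1 name between libraries.

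Where a mature name had several rows, the one with the most counts over both libraries was used. Shares carry 95% Wilson intervals, and differences of shares Newcombe intervals. Counts were compared by exact binomial tests (scipy 1.17.1) at an adjusted threshold of 0.05, with 0.5 counts added for log2 ratios, and the code was tested on simulated data. TMM sizes came from edgeR 4.0.16 and size factors from DESeq2 1.42.0, both on names with at least 10 summed counts. A count of 0 was taken to allow up to 3 counts. There is 1 group, so edgeR's quasi-likelihood fit had nothing to compare. Hairpins were placed by exact match to GRCh37 with GENCODE annotation lifted to it. Sequences are from RefSeq, where 1716 of the 2042 names matched, and folding from ViennaRNA 2.7.2. Names were chosen by rule: the members, names sharing or offsetting their seed, listed intronic, reference, metabolic, antisense and cell-type marker microRNAs, and the 5 nearest in level to miR-103a-3p and to miR-107. The members and lists were chosen with earlier results of these data known.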

Additional observations from a re-analysis of the deposited data

How the results depend on the processing

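The alternatives gave 49 values for 9 results. In 10 of these, which leave out 1 of 2 libraries, the mean moves by less than 1 SD by construction, so they show nothing about stability. Of the other 39, 26 stayed within the limits set (1 SD for levels and shares, the same call and direction for ratios, 1.5 times for counts). With repeated rows summed, which counts each miR-103a-3p read once per hairpin, the family level was 22258 CPM, miR-103a-3p 21495 CPM, miR-107 759 CPM and the miR-107 share 3.41%. On the deposited RPM, whose denominators exceed the totals used here, the levels were 11479, 10719 and 756 RPM. With the 3p reads of both hairpins in the denominator, the 5p share of hsa-mir-103a-2 was 0.0153%. With only the names that have the exact offset seed, an alternative chosen after seeing the data, the family's share beside the miR-15/16 list was 86.4%, against 84.9%. These shifts follow from how the alternatives are built. The log2 ratio of miR-103a-3p was -0.051 by totals, 0.036 with TMM sizes and 0.063 by DESeq2's factors. That of miR-107 was -0.083 and -0.057 and lost its call. Pseudocount, count filters and summed rows changed neither call. The number of names called ranged from 212, among names with at least 100 summed counts, to 252, with repeated rows summed. The count filters test different sets of names, so these numbers are not shares of 1 set. Leaving out either library gave 13178 to 13725 CPM for the family. All results rest on 2 libraries of 1 line, so the spread has 1 degree of freedom. No paired analysis was possible because there is 1 group.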
